A study of Mus musculus with 4 samples.

Results

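Chemokine genes of myeloid cells were described in the hippocampus of Dp(10)2Yey mice and their wild-type (WT) littermates. The genes are Ccl2, Ccl7, Ccl12, Ccl3, Ccl4, Ccl6, Ccl9, Cxcl2, Ppbp and Cxcl16, which are 10 of the 31055 genes in the deposited tables and were found by their symbols. They were listed by name with earlier results of these cells known, so their levels in the myeloid clusters are given as a description without a test. Cells were released with enzymes from the hippocampus of 4 male mice aged 3 months on C57BL/6J, 2 Dp(10)2Yey and 2 WT, and each mouse gave a separate single-cell library in droplets. Dp(10)2Yey mice carry, on one homologue only, a duplication of the segment of mouse chromosome 10 that corresponds to a part of human chromosome 21. None of the 10 genes lies on chromosome 10. RNA molecules were captured near the 3′ end and counted by their unique molecular identifiers (UMIs), so that values are molecules per gene and cell.

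Chemokines are small secreted proteins that direct the movement of leukocytes through G protein-coupled receptors. Microglia are the resident macrophages of the brain parenchyma, and border macrophages are those of the meninges, the perivascular spaces and the choroid plexus. Both can release chemokines, and the RNA of several chemokines is known to be induced when brain tissue is dissociated at warm temperature, as was done here.

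The libraries held between 1039 and 2345 barcodes and between 3002546 and 9612011 UMIs, with both the smallest numbers in WT replicate 1 and both the largest in Dp(10)2Yey replicate 2. After barcodes with under 200 genes and red blood cells were left out, 6247 cells remained, and 8 barcode sequences occurred in more than 1 library. Microglia-like cells numbered 310, 536, 373 and 784 in WT replicates 1 and 2 and Dp(10)2Yey replicates 1 and 2. Their median depth was 3652, 4184, 4387 and 4128 UMIs in the same order. All 18 microglia markers were detected in them and took between 5.15% and 5.42% of their UMIs in each library, whereas 6 of 11 border macrophage markers and 3 of 11 neutrophil markers were detected, at no more than 0.0108% and 0.0171% of UMIs in any library. Among those at 0 were Cd163, Lyve1 and F13a1 and, for neutrophils, S100a8 and S100a9. A further 562 microglia-like barcodes formed a low-RNA cluster (median 802 UMIs), with 4.91% to 5.70% of UMIs from microglia markers. The other population described was a myeloid sub-cluster of 103 cells with S100a9, S100a8, Pf4, H2-Aa, Wfdc17 and Mrc1 as its leading genes. All 11 border macrophage, all 11 neutrophil, all 18 microglia, 7 of 9 MHC class II cell and 6 of 8 monocyte markers were detected in it. It is called the Mrc1 and Pf4 sub-cluster here, because it held neutrophil markers at 0%, 0%, 4.55% and 1.58% of UMIs in WT replicates 1 and 2 and Dp(10)2Yey replicates 1 and 2.

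In the genome (GRCm38) 7 of the genes stand in a pair of groups on chromosome 11. Ccl2 (11:82035571-82037453), Ccl7 (11:82045712-82047525) and Ccl12 (11:82101845-82103400) lie on the plus strand, with 8.26 kb between Ccl2 and Ccl7 and 54.3 kb between Ccl7 and Ccl12. Farther along are Ccl9 (11:83572919-83578636), Ccl6 (11:83587882-83593087) and Ccl3 (11:83647844-83649355) on the minus strand, and Ccl4 (11:83662584-83664683) on the plus strand, 13.2 kb from Ccl3. Cxcl16 (11:70453983-70459984, minus strand) stands apart on the same chromosome. Ppbp (5:90768518-90770063) and Cxcl2 (5:90903871-90905938) lie 134 kb apart on the plus strand of chromosome 5. Ccl2, Ccl6 and Cxcl16 each overlap a gene annotated on the opposite strand (Gm17268, E230016K23Rik and Zmynd15).

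Of the 10 genes, 6 had a promoter in the RefSeq table for GRCm38.p6, and the 250 bases before the start are shown for 4 of them that differ in the pattern described here. Ccl12 (chr11:82101595-82101844, plus strand) and Ccl3 (chr11:83649379-83649628, minus strand) were scarce in low-RNA barcodes, and Ccl6 (chr11:83593088-83593337, minus strand) and Ccl9 (chr11:83578637-83578886, minus strand) were not. Capitals mark matches to the motifs given after the sequences, each written 5′ to 3′ on the strand of the gene.
Ccl12: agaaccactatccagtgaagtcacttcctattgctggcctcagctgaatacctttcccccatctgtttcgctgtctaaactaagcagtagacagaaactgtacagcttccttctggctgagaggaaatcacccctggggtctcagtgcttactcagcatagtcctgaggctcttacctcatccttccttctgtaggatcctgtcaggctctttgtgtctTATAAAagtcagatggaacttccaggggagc
Ccl3: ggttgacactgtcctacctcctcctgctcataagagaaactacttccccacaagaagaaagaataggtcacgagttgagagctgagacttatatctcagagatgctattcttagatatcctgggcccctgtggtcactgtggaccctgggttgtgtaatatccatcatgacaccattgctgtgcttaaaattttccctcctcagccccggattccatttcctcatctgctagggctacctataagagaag
Ccl6: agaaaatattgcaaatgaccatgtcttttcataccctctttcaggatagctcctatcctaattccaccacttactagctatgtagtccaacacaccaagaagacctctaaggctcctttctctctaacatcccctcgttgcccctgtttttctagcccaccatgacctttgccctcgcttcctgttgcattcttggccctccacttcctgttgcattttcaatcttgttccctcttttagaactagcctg
Ccl9: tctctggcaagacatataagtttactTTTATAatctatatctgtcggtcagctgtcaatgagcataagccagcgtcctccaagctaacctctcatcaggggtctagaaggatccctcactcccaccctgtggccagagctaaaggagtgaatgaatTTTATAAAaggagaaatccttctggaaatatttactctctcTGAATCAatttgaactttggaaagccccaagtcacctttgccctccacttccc

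A pair of short motifs was searched on both strands. One was the AP-1 motif TGANTCA, which 6.75% of 32851 promoters of the same length held. The other was the box TATAAA, which 12.4% of them held. The Ccl9 promoter held an AP-1 motif at 53 to 47 bases before the start and the TATAAA letters at 3 places, of which 2 overlap each other. Ccl12 held TATAAA at 31 to 26 bases. The Ccl3 and Ccl6 windows held neither motif as written. These are matches of letters within this window only.

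**Figure D1:**
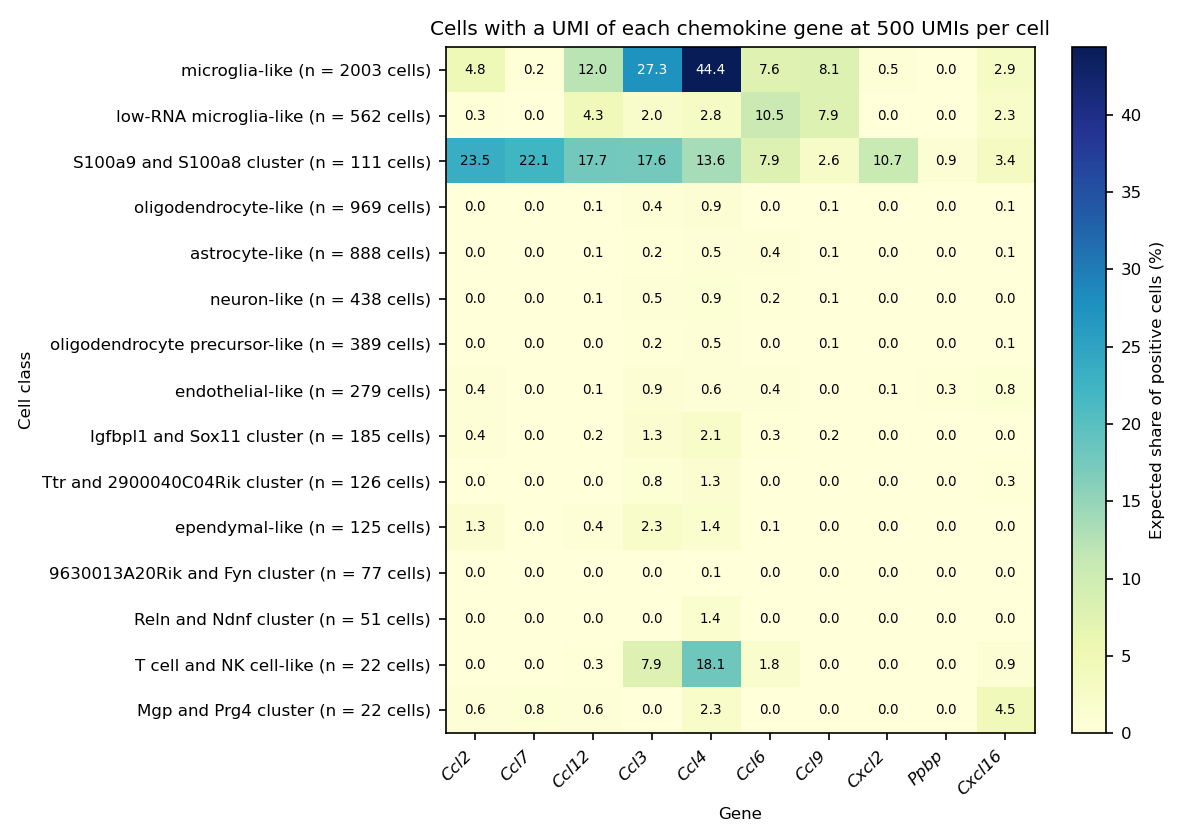
Expected share of cells (%) with at least 1 UMI of each chemokine gene after each cell was thinned to 500 UMIs, by cell class (rows, with the number of cells) and gene (columns). Ccl4 (44.4%) and Ccl3 (27.3%) are highest in microglia-like cells, and Ccl7 and Cxcl2 are near 0 everywhere except the cluster led by S100a9 and S100a8, which contains the Mrc1 and Pf4 sub-cluster.

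Ccl2, Ccl7 and Ccl12 encode monocyte chemoattractant proteins that act through Ccr2. Their RNA was divided between microglia and the Mrc1 and Pf4 sub-cluster in unequal parts. Of all UMIs of each gene in the cells kept, microglia-like cells held 88.0% for Ccl12, 62.6% for Ccl2 and 8.84% for Ccl7. The Mrc1 and Pf4 sub-cluster, with 103 of 6247 cells, held 7.69%, 32.8% and 86.3%. By level, microglia-like cells had 370 CPM (counts scaled to a common total) of Ccl12, 150 of Ccl2 and 7.64 of Ccl7, and the sub-cluster had 954, 2317 and 2199 CPM.

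Ccl12 had a UMI in 45% of microglia-like cells (902 of 2003, 95% Clopper-Pearson interval 42.8% to 47.2%). Intervals here cover counting error only. As background, 0.62% of oligodendrocyte-like, 0.56% of astrocyte-like and 0.23% of neuron-like cells had a Ccl12 UMI, at median depths of 4971, 1614 and 1764 UMIs. Ccl2 had a UMI in 15.5% of microglia-like cells (310 of 2003), with 0.21% of oligodendrocyte-like, 0.11% of astrocyte-like and 0 of the neuron-like cells. The 10% of microglia-like cells with the most Ccl2 held 91.4% of its UMIs, compared with 64.7% for Ccl12. These values depend on the share of positive cells, which was lower for Ccl2, so they do not compare the positive cells of the genes. Ccl7 was found in 14 of 2003 microglia-like cells (0.70%) and in 0 of the oligodendrocyte-like, astrocyte-like and neuron-like cells.

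Ccl3 and Ccl4 encode the macrophage inflammatory proteins 1-alpha and 1-beta, which attract leukocytes, and Ccl3 can act through Ccr1. They were the most abundant of the 10 genes by UMIs, with 13214 UMIs for Ccl3 and 37987 for Ccl4 over all cells kept. Ccl4 had a UMI in 63.3% of microglia-like cells (1267 of 2003, interval 61.1% to 65.4%) and Ccl3 in 48.1% (964 of 2003, interval 45.9% to 50.3%). The median positive microglia-like cell held 16 UMIs of Ccl4 and 7 of Ccl3, and the highest cells held 318 and 182. Microglia-like cells held 97.2% of all Ccl4 UMIs and 94.3% of all Ccl3 UMIs. Outside myeloid cells, 3.30% of oligodendrocyte-like, 1.46% of astrocyte-like and 2.05% of neuron-like cells had a Ccl4 UMI. The T cell and NK cell-like cluster differed from this background, with Ccl4 in 11 and Ccl3 in 4 of its 22 cells.

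Ccl6 and Ccl9 encode chemokines of mouse that act through Ccr1. In microglia-like cells 38.4% were positive for Ccl6 (769 of 2003) and 38.7% for Ccl9 (776 of 2003). Their range per cell was narrow beside that of Ccl4, with a median of 1 UMI in positive cells for both. The highest microglia-like cell held 14 UMIs of Ccl6 and 95 of Ccl9. Among oligodendrocyte-like cells 0.41% had a Ccl6 UMI and 0.52% a Ccl9 UMI. Microglia-like cells held 83.3% of all Ccl6 UMIs and 91.2% of all Ccl9 UMIs.

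Cxcl16 encodes a chemokine anchored in the membrane that is the ligand of Cxcr6, and it had a UMI in 19.9% of microglia-like cells (398 of 2003), which held 83.6% of its UMIs. It was also found in 6 of the 22 cells of a cluster led by Mgp and Prg4, genes of connective tissue cells. Cxcl2 encodes a ligand of Cxcr2 that attracts neutrophils, and it was rare, with 676 UMIs in 46 cells. The 10 cells with the most held 76.0% of these UMIs, compared with 60.5% for Ccl7 and 6.92% for Ccl4. The Mrc1 and Pf4 sub-cluster held 58.0% of Cxcl2 UMIs and microglia-like cells held 30.5%, in 24 of 2003 cells (1.20%).

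Among receptors of these chemokines, Ccr1 had a UMI in 1.30% of microglia-like cells, Ccr2 in 1.0% and Cxcr2 in 0.20%. In the Mrc1 and Pf4 sub-cluster the same receptors had a UMI in 25.2%, 5.83% and 5.83% of cells. The decoy-like receptor Ccrl2 had a UMI in 41.1% of microglia-like cells.

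Most microglia-like cells carried RNA of several of the 10 genes. At least 1 was detected in 1845 of 2003 cells (92.1%), the median was 3 genes, and the most was 8, in 1 cell. Ccl3 and Ccl4 were the pair found most often together. They were both present in 807 cells, which are 83.7% of the Ccl3-positive and 63.7% of the Ccl4-positive cells. Across the 1923 microglia-like cells with at least 1000 UMIs, each thinned to that depth, Pearson's r between log values of Ccl3 and Ccl4 averaged 0.53 over the libraries (range 0.52 to 0.54). Pairs with Cxcl2, which had 0 UMIs in WT replicate 1, or with Ppbp had no such average. Among the other pairs the next highest average was 0.10, for Ccl2 and Ccl4. Ccl2 and Ccl12, which lie in the same genomic group, had an average r of 0.07, and Ccl6 and Ccl9, neighbours on the minus strand, 0.02. These are correlations across cells of shared libraries and describe these cells only.

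The same measure was used to rank 2693 other genes. The genes most like Ccl4 were Tnf (0.19), Cd83 (0.18), Id2 (0.18), H3f3b (0.17) and Atf3 (0.16), and those most like Ccl3 were Cd83 (0.18), Tnf (0.17), Csf1 (0.14), Id2 (0.13) and Cd9 (0.13). Tnf encodes an inflammatory cytokine and Cd83 a surface protein of activated immune cells. For Ccl2 the highest was Egr3 (0.15) and for Ccl12 Gpr84 (0.15), a receptor of medium-chain fatty acids. In Egr3 the libraries ranged from 0.04 to 0.23 and in Gpr84 from 0.04 to 0.30. No other gene passed 0.10 for Ccl6 or Ccl9 (highest Med8 at 0.095 and Mdh1 at 0.093), and the highest for Cxcl16 was Ndufb3 at 0.10.

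In the microglia-like barcodes with little RNA, 7 of the 10 genes were detected, all except Ccl7, Cxcl2 and Ppbp, and the shares of positive cells differed from those of the deeper cells for some genes. To compare them at one depth, each cell was thinned to 500 UMIs, the lowest total of any barcode, and the expected share of positive cells was computed exactly. Ccl4 was then expected in 44.4% of microglia-like cells and 2.80% of low-RNA barcodes. Ccl3 was expected in 27.3% and 2.05%, Ccl12 in 12% and 4.30%, and Ccl2 in 4.76% and 0.35%. For Ccl6 the order was the opposite, with 7.56% and 10.5%, while Ccl9 had 8.11% and 7.85% and Cxcl16 2.93% and 2.26%. Before thinning, Ccl6 and Ccl9 were the genes with the largest shares in low-RNA barcodes, at 18.5% and 14.4%, beside 4.09% for Ccl4.

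The order for Ccl4 and Ccl6 was the same in every library. For Ccl4, microglia-like cells gave 47.0%, 46.4%, 44.4% and 41.9% at 500 UMIs in WT replicates 1 and 2 and Dp(10)2Yey replicates 1 and 2, and low-RNA barcodes gave 0%, 2.82%, 2.58% and 4.77%. For Ccl6, microglia-like cells gave 8.47%, 8.22%, 5.6% and 7.67% and low-RNA barcodes 11.2%, 12.7%, 9.76% and 9.23%. The low-RNA barcodes of this cluster were thus lower for Ccl4 and higher for Ccl6 in 4 of 4 libraries, with no overlap between the populations for either gene. Cxcl16 was lower in low-RNA barcodes by a small margin, with 2.65% to 3.20% in the libraries' microglia-like cells and 1.86% to 2.59% in their low-RNA barcodes. Ccl9 values overlapped, at 9.82%, 7.04%, 9.91% and 7.31% against 11%, 6.71%, 8.67% and 5.97%. The clusters were formed from the RNA of the same cells, so no test was made.

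**Figure D2:**
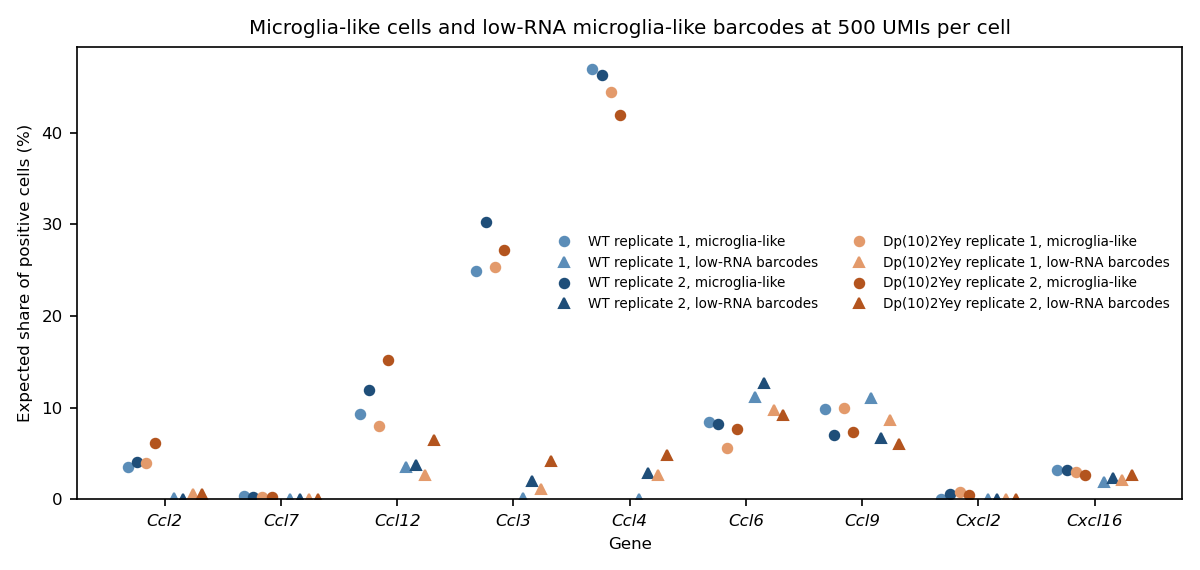
Expected share of positive cells (%) at 500 UMIs per cell in microglia-like cells (circles) and low-RNA microglia-like barcodes (triangles), 1 point per library, for 9 genes. For Ccl3, Ccl4, Ccl12, Ccl2, Cxcl16 and Ccl7 every circle lies above every triangle, for Ccl6 every triangle lies above every circle, and for Ccl9 they overlap.

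Ppbp encodes pro-platelet basic protein, a chemokine stored in platelet granules. It was proposed as the leading gene of low-RNA barcodes, but no UMI of it was found in them. Ppbp had 0 UMIs in the 562 low-RNA microglia-like barcodes, which allows a share of up to 0.534% with a UMI, and in the 2003 microglia-like cells, which allows up to 0.15%. These limits hold for barcodes with a UMI at their own depth (a median of 802 UMIs in the low-RNA barcodes), and a transcript of low level could be missed there. It had 48 UMIs in 7 of the cells kept, and 34 of these were in 1 barcode of WT replicate 1. That barcode held 1403 UMIs and 455 genes, with 69 UMIs of Pf4, 10 of 14 platelet markers and 1 UMI of the microglia markers. It fell in the Mrc1 and Pf4 sub-cluster (median 1922 UMIs). The other 6 barcodes were endothelial-like, and of these the highest had 8 Ppbp UMIs among 24194 UMIs and 6 platelet markers, in WT replicate 2. This barcode also held 6633 UMIs of globin genes and 25 UMIs of microglia markers. In the other 5, with 2 or fewer Ppbp UMIs, at most 2 platelet markers were seen. Of the platelet markers, Tubb1 and Gp6 had 0 UMIs in each of these populations, while Gp9 had a UMI in 21.4% of microglia-like cells.

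Microglia and the other myeloid cells were clustered again by themselves with the 10 genes left out of the genes used for clustering, which gave 8 sub-clusters of 2676 cells. They are called by leading genes. Of these, 2 had a low median depth, one called the low-RNA sub-cluster here (534 barcodes, median 797 UMIs) and one led by Ptgds (164 barcodes, median 962 UMIs). The leading genes of the low-RNA sub-cluster included Ttr, the globin genes Hba-a2 and Hbb-bs, and ribosomal protein genes such as Rplp1 and Rps7. Of the others, the largest were led by Klf4 and Klf2 (783 cells), by Gadd45b and Nfkbia (731 cells) and by Hspa1b and Hist1h1d (319 cells). Ccl4 was expected at 500 UMIs in 42.0%, 51.3% and 29.6% of these cells, and Ccl3 in 26.9%, 29.2% and 20.005%. For Ccl12 the values were 12.1%, 14.1% and 6.04%, and for Ccl2 5.16%, 5.06% and 2.27%. The Hspa1b and Hist1h1d cells were lowest of the 3 sub-clusters for Ccl4, Ccl3 and Ccl12 in each library, and for Ccl2 in each library except Dp(10)2Yey replicate 1 (3.13%, against 2.54% in the Klf4 and Klf2 cells). For Ccl6 they held 9.03% over all libraries, and were highest of the 3 in both WT libraries but not in the Dp(10)2Yey libraries. The 2 sub-clusters of low depth differed from each other at 500 UMIs. The low-RNA sub-cluster had Ccl4 in 2.82%, Ccl3 in 2.04%, Ccl12 in 4.43% and Ccl6 in 10.4%, whereas the Ptgds sub-cluster had 37.0%, 22.5%, 9.24% and 7.52%. By library, Ccl4 in the Ptgds sub-cluster was at 40.5%, 38.4%, 31.7% and 35.8%.

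A pair of small sub-clusters had high levels of several of these genes. In the 29 cells led by Spp1 (osteopontin) and Lpl (lipoprotein lipase) Ccl4 was found in 29 and Ccl3 in 28. Their Ccl4 level was 19977, 14494, 8644 and 20726 CPM in WT replicates 1 and 2 and Dp(10)2Yey replicates 1 and 2, from 6, 8, 6 and 9 cells. The cells led by Gadd45b and Nfkbia had 4301 CPM of Ccl4 over all libraries. Over all libraries the Spp1 and Lpl cells also had 6032 CPM of Ccl3, 870 CPM of Ccl9 and 387 CPM of Cxcl16, where the Gadd45b and Nfkbia cells had 1417, 185 and 57.7 CPM. Ccl3 ran from 4074 to 8122 CPM over the libraries, Ccl9 from 248 to 1482 and Cxcl16 from 82.6 to 641. A single cell held 95 of the 173 Ccl9 UMIs, and the highest cell held 27 of the 77 Cxcl16 UMIs. The 13 cells led by Ifit3 and Isg15, interferon-response genes, all had a Ccl12 UMI, at 4805, 13779, 3214 and 3969 CPM from 2, 4, 2 and 5 cells. Ccl12 was at 379 CPM in the Gadd45b and Nfkbia cells, and Ccl6 was found in 2 of the 13 Ifit3 and Isg15 cells. Ccl4 was at 12446 CPM in the 13 cells together, from 8 positive cells, but ranged from 0 CPM in WT replicate 1 to 18494 CPM in Dp(10)2Yey replicate 2.

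**Figure D3:**
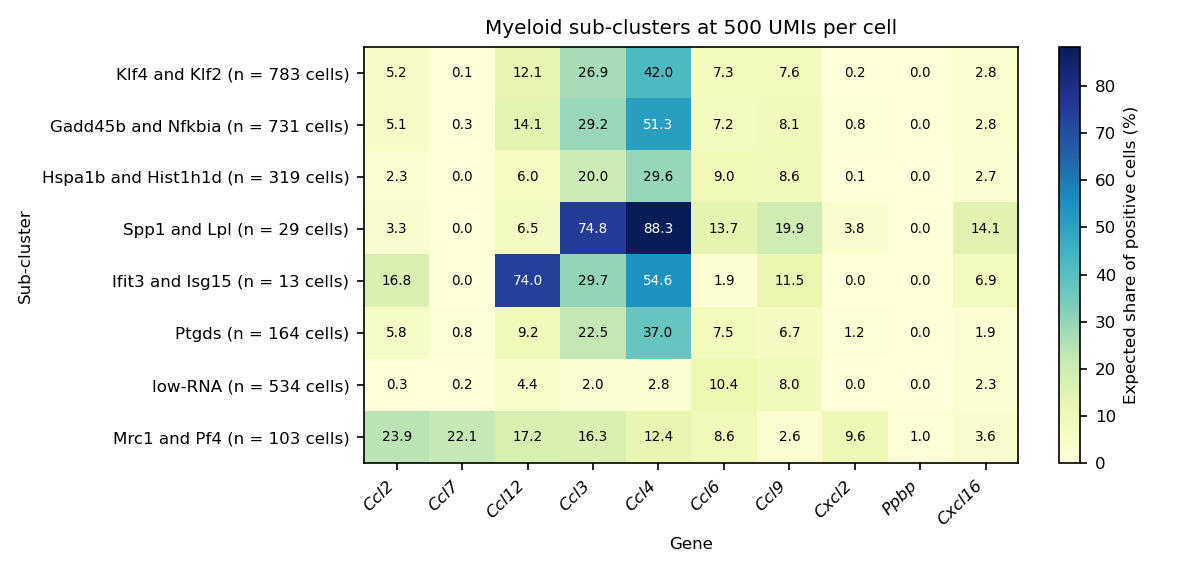
Expected share of positive cells (%) at 500 UMIs per cell for each chemokine gene (columns) in the 8 myeloid sub-clusters (rows, named by leading genes, with the number of cells). The highest values are those of Ccl4 (88.3%) and Ccl3 (74.8%) in the Spp1 and Lpl cells and of Ccl12 (74.0%) in the Ifit3 and Isg15 cells.

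The Mrc1 and Pf4 sub-cluster was mixed, and its chemokine genes were not spread evenly. Among its 103 cells, 8 barcodes had 30 or more UMIs of neutrophil markers, and no other had more than 2. These 8 barcodes came from Dp(10)2Yey replicates 1 and 2, with 4 in each. Ccl6 was found in 7 of the 8, while Ccl2, Ccl7, Ccl12 and Ccl3 were found in 0, and 1 of the 8 held 52 UMIs of Cxcl2. Another 74 cells had an Mrc1 UMI, which encodes the mannose receptor of macrophages, and 19 of them had only 1 or 2 such UMIs. The remaining 21 had neither. Across these groups, 19 barcodes outside the 8 had at least 10 UMIs of MHC class II cell markers, and Ccl2 was found in 5 of them, Ccl7 in 4 and Ccl12 in 5.

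Ccl2 and Ccl7 were found only in cells with Mrc1 within this sub-cluster. Each was present in 33 of the 74 cells with Mrc1 and in 0 of the 21 without. By library, Ccl7 was found in 4 of 10, 10 of 17, 1 of 7 and 18 of 40 cells with Mrc1 in WT replicates 1 and 2 and Dp(10)2Yey replicates 1 and 2, and Ccl2 in 4, 10, 0 and 19 of them. Of the 33 Ccl7-positive cells, 29 also had Ccl2 and 11 also had Cxcl2. Ccl12 was found in 31 of the 74, Ccl3 in 23, Ccl4 in 17 and Cxcl2 in 12, compared with 2, 4, 2 and 3 of the 21 cells without Mrc1. Pf4, a chemokine of platelets and of border macrophages, had a UMI in 80.6% of the sub-cluster, Ccl24 in 37.9% and Ccl8 in 12.6%.

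To compare genotypes, the share of positive microglia-like cells was taken per library, with 2 libraries per genotype. An exact permutation test of 2 against 2 cannot give a two-sided p below 0.333. Ccl2 was positive in 12.6% and 14.0% of microglia-like cells in WT replicates 1 and 2 and in 15.3% and 17.7% in Dp(10)2Yey replicates 1 and 2. Both Dp(10)2Yey values were above both WT values, with means of 13.3% ± 0.998 (SD, n = 2) and 16.5% ± 1.73 (SD, n = 2; exact permutation p = 0.333). Cxcl2 was positive in 0%, 0.93%, 2.68% and 1.15%, from 0, 5, 10 and 9 cells, also without overlap. Ccl7 was positive in 1.61%, 0.56%, 0.54% and 0.51%, from 5, 3, 2 and 4 cells, and was lower in both Dp(10)2Yey libraries. With at least 2 UMIs asked of a positive cell, Ccl7 was instead at 0%, 0.19%, 0.54% and 0.26%, higher in both, and its summed level had a log2 fold change of 0.43 ± 0.45 (SE), so its direction was not settled. Separation in either direction was found for 40.7% of the 9083 genes tested in these cells, and for 4.5% it was towards lower values in Dp(10)2Yey, while 3 of the 10 chemokine genes had it.

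For the other genes the genotypes overlapped. Ccl12 was positive in 40.0%, 42.9%, 38.3% and 51.7% of microglia-like cells in the same order of libraries, so that the lowest and the highest value were both Dp(10)2Yey. Ccl4 was positive in 60.6%, 65.5%, 65.4% and 61.7%, and Ccl3 in 45.8%, 52.2%, 46.9% and 46.8%. Ccl9 ran from 35.6% in WT replicate 2 to 47.2% in Dp(10)2Yey replicate 1, Ccl6 from 34.6% in Dp(10)2Yey replicate 1 to 40.2% in Dp(10)2Yey replicate 2, and Cxcl16 from 17.1% in WT replicate 1 to 21.4% in Dp(10)2Yey replicate 1. When each cell was thinned to 1000 UMIs, Ccl2, Ccl7 and Cxcl2 overlapped, and Ccl4, Ccl6 and Cxcl16 were instead lower in both Dp(10)2Yey libraries. Of all genes tested, 30% were without overlap at that depth and 13.2% were lower in both Dp(10)2Yey libraries. Ccl4 was then 53.8%, 53.6%, 52.3% and 49.3%.

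**Figure D4:**
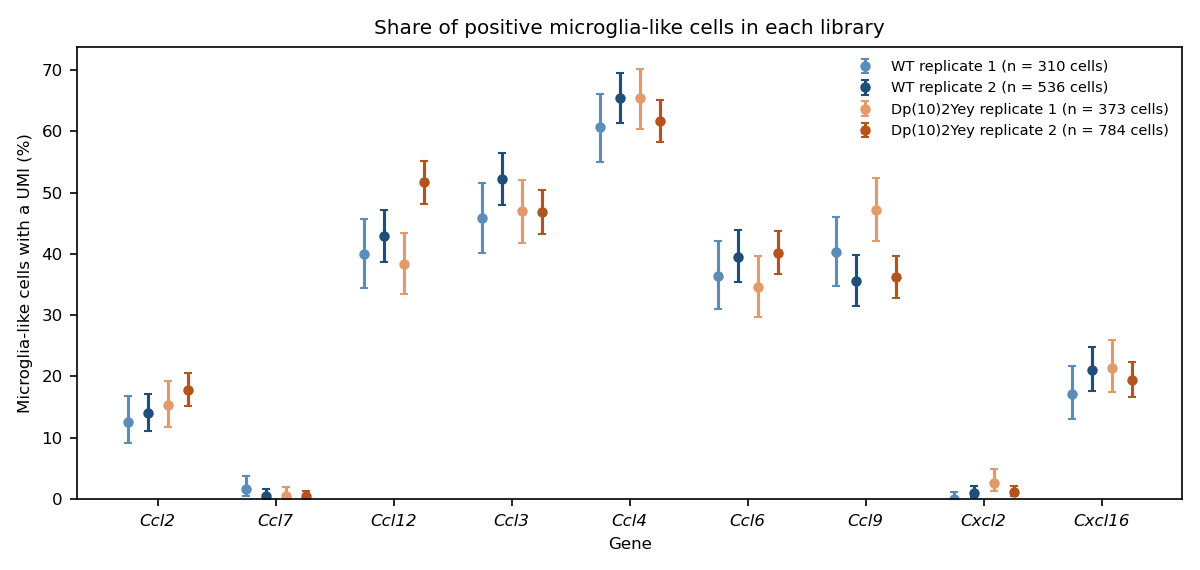
Share of microglia-like cells (%) with at least 1 UMI of 9 chemokine genes in each library. Points are libraries and bars are 95% Clopper-Pearson intervals, which cover counting error only, and the Dp(10)2Yey points of Ccl2 lie at 15.3% and 17.7%, above the WT points at 12.6% and 14.0%.

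The UMIs of microglia-like cells were then summed per library and compared with edgeR's quasi-likelihood test across 9083 genes, of which 0 (0.0%) passed an adjusted p of 0.01. At an unadjusted p under 0.05 the count was 276 genes (3.04%), and DESeq2 also called 0. Of the chemokine genes 9 were tested, 0 passed, and 0 had an unadjusted p under 0.05. Fold changes are given as Dp(10)2Yey over WT, and the median over these genes was -0.06 on the log2 scale, where all genes tested had 0.00. The level of Ccl4 in WT replicates 1 and 2 and Dp(10)2Yey replicates 1 and 2 was 4649, 4714, 4137 and 4164 CPM. The genotypes did not overlap, as in 29.9% of all genes tested, and the log2 fold change was -0.17 ± 0.12 (SE, adjusted p = 1.0 by edgeR). Cxcl16, at 66.0, 79.7, 59.9 and 58.4 CPM, had a log2 fold change of -0.33 ± 0.17 (SE, adjusted p = 1.0 by edgeR) and no overlap either.

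Ccl3 was at 1370, 1566, 1295 and 1540 CPM (log2 fold change -0.05 ± 0.13, SE) and Ccl12 at 258, 412, 239 and 451 CPM (0.04 ± 0.22). For both genes the higher library of each genotype was replicate 2, and the genotypes overlapped. Ccl2, at 107, 147, 98.4 and 194 CPM (0.21 ± 0.22), showed the same arrangement. Ccl6 (-0.24 ± 0.16) and Ccl9 (-0.06 ± 0.16) overlapped as well. Cxcl2, at 0, 49.3, 22.5 and 17.0 CPM, had a log2 fold change of -0.63 ± 0.54 that rested on 1 library in either direction. Without WT replicate 1 it was -1.36 (adjusted p = 0.00076 by edgeR), and without WT replicate 2, which leaves only a WT library at 0, it turned to 8.32 (adjusted p = 4.1e-05 by edgeR).

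With all cells of a library summed, where fewer cells of a type and less RNA per cell cannot be told apart, 0 of 13807 genes passed the threshold (0.0%), with 377 (2.73%) at an unadjusted p under 0.05 and 3 called by DESeq2. Of the 9 chemokine genes tested there 0 passed. Ccl7 was unequal between libraries, with 35.2 and 37.8 CPM in the WT libraries and 2.66 and 40.2 CPM in Dp(10)2Yey replicates 1 and 2, so that Dp(10)2Yey replicate 1 alone was low. Its log2 fold change was -0.67 ± 0.73 (SE), which was 0.14 without Dp(10)2Yey replicate 1 and -3.78, past the threshold, without Dp(10)2Yey replicate 2. Cxcl16 was at 29.8, 31.0, 24.3 and 27.0 CPM, again without overlap, as were 26.9% of all genes.

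The same comparison was made in the 6 myeloid sub-clusters with at least 10 cells in each library, where 0 of 38 tests of these genes passed. The background of calls was 0.0% of the genes tested in 4 of the sub-clusters, 0.0141% in the Gadd45b and Nfkbia cells and 0.762% in the Mrc1 and Pf4 sub-cluster. DESeq2 also called 0 of the 38. Unadjusted p-values under 0.05 were reached by 6 of the 38 tests, with 2 each in the Gadd45b and Nfkbia cells, the Hspa1b and Hist1h1d cells and the Mrc1 and Pf4 sub-cluster, where 3.55%, 3.25% and 5.03% of all genes reached them. They were reached by 0 chemokine genes in the Klf4 and Klf2, low-RNA and Ptgds sub-clusters, against 3.05%, 3.1% and 3.57% of all genes. Groups without overlap were found for 12 of the 38, beside 30.4% of all genes in the Klf4 and Klf2 cells, 31.6% in the Gadd45b and Nfkbia cells, 28.3% in the low-RNA, 32.3% in the Hspa1b and Hist1h1d and 31.2% in the Ptgds cells.

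In the Gadd45b and Nfkbia cells the level of Ccl4 was 5305, 4878, 4531 and 3636 CPM in WT replicates 1 and 2 and Dp(10)2Yey replicates 1 and 2. These values did not overlap (log2 fold change -0.32 ± 0.12, SE, adjusted p = 1.0 by edgeR). In the Hspa1b and Hist1h1d cells Ccl6 had 210, 355, 110 and 194 CPM, likewise lower in both Dp(10)2Yey libraries (-0.86 ± 0.30, adjusted p = 1.0 by edgeR). The other gene with an unadjusted p under 0.05 was Ccl2 in both sub-clusters, and it was higher in both Dp(10)2Yey libraries. Its log2 fold change was 0.44 ± 0.20 in the Gadd45b and Nfkbia cells, from 116, 134, 136 and 200 CPM, and 1.36 ± 0.59 in the Hspa1b and Hist1h1d cells (adjusted p = 1.0 by edgeR in each), where WT replicate 1 was at 0.

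In the Mrc1 and Pf4 sub-cluster 17, 22, 15 and 49 cells were summed. Ccl12 had 2383 and 2128 CPM in WT replicates 1 and 2 and 762 and 1042 CPM in Dp(10)2Yey replicates 1 and 2 (log2 fold change -1.30 ± 0.47, SE, adjusted p = 0.69 by edgeR). Ccl7 had 4369, 5909, 120 and 2637 CPM (-1.80 ± 0.76, adjusted p = 0.75 by edgeR), and Ccl2 had 3266, 6710, 0 and 2905 CPM (-1.68 ± 0.94, adjusted p = 1.0 by edgeR). All 3 genes were lower in both Dp(10)2Yey libraries, as 30.9% of the 656 genes tested had groups without overlap in either direction. Dp(10)2Yey replicate 1 was lowest for each of them and also had 0 UMIs of Ccl3 and Ccl4, while Dp(10)2Yey replicate 2 had Ccl3 at 1978 CPM, above both WT libraries at 1015 and 1352. Border macrophage markers took 1.22%, 1.44%, 0.469% and 1.19% of UMIs, so they too were lowest in Dp(10)2Yey replicate 1. MHC class II cell markers took 0.518%, 0.448%, 0.53% and 1.09%, and were highest in Dp(10)2Yey replicate 2. Monocyte markers took 0.0126%, 0%, 0.209% and 0.0207%, and were highest in Dp(10)2Yey replicate 1. The part of any of these lists in these values was not tested. Without the 8 neutrophil-marker barcodes the log2 fold changes were -1.17 for Ccl12 and -1.72 for Ccl7. Ccl7 was at -0.92 without Dp(10)2Yey replicate 1 and at -5.42 without Dp(10)2Yey replicate 2, and Ccl2 was at -0.75 without Dp(10)2Yey replicate 1 and at -1.08 without WT replicate 2. With the replicate number as a block Ccl7 was at -2.47 (adjusted p = 4.99e-05 by edgeR) and Ccl2 at -2.58 (adjusted p = 3.302e-05 by edgeR), both past the threshold, while Ccl12 was not. The sources do not say whether equal replicate numbers share a preparation day. Leaving out Dp(10)2Yey replicate 2, which leaves a lone Dp(10)2Yey library, brought Ccl7, Ccl2, Ccl3, Ccl4, Ccl6 and Ppbp past the threshold. These were not all lower in Dp(10)2Yey. Ccl6 was higher, at 31.6, 67.2, 1166 and 182 CPM before TMM in the same order of libraries. In Dp(10)2Yey replicate 1 it was found in the 4 neutrophil-marker barcodes, in 2 cells with Mrc1 and in 1 barcode with neither. That 1 barcode held 26 Ccl6 UMIs, while no neutrophil-marker barcode held more than 8. All Ppbp UMIs of the sub-cluster were in 1 barcode of WT replicate 1, the one with platelet markers.

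**Figure D5:**
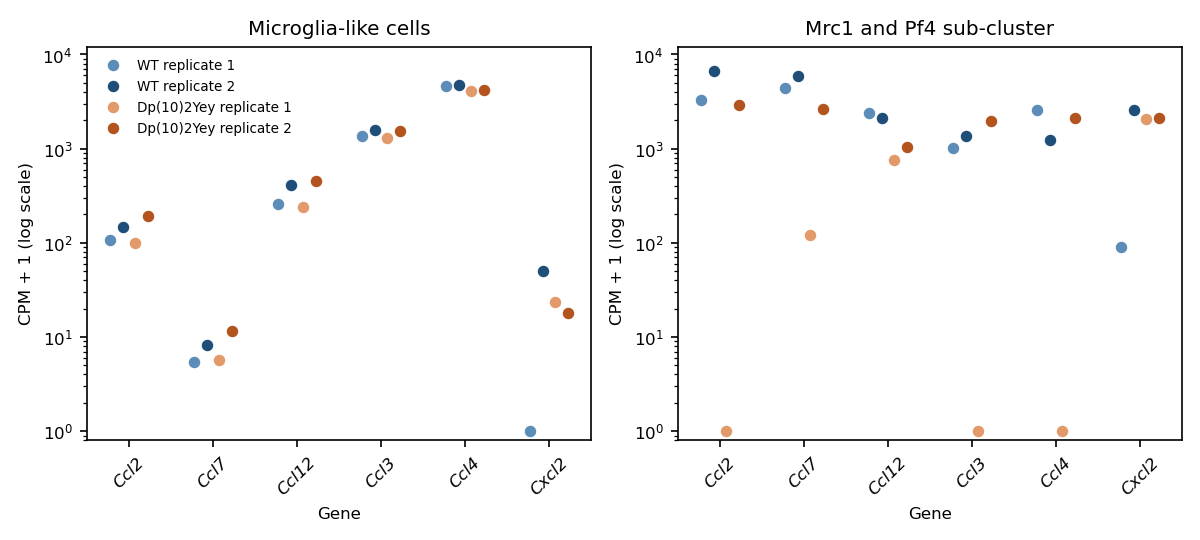
CPM + 1 (log axis) of 6 chemokine genes in each library, 1 point per library, in microglia-like cells (left) and the Mrc1 and Pf4 sub-cluster (right). In the right panel Dp(10)2Yey replicate 1 lies at 0 CPM for Ccl2, Ccl3 and Ccl4 and at 120 CPM for Ccl7, while in the left panel the 4 libraries stay close for Ccl3 and Ccl4 and WT replicate 1 lies at 0 CPM for Cxcl2.

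Other genes of chemokine signaling in microglia-like cells were counted from lists. Of 23 chemokine receptors 4 had enough UMIs to be tested, and 0 passed in either direction (median log2 fold change -0.00). Of 36 other chemokine ligands 3 were tested and 0 passed, with a median of -0.59. That median was the value of Cxcl10, a chemokine induced by interferon (adjusted p = 1.0 by edgeR), which had a UMI in 5.84% of microglia-like cells. Of 24 genes of cytokine signaling and NF-κB feedback, which can induce several of these chemokines, 22 were tested, 0 passed and the median was -0.02. Of 23 genes of the response to dissociation all were tested, 0 passed and the median was -0.07, with 10 of the 23 above 0. Before adjustment 4 of the 23 had a p under 0.05, beside 3.04% of all genes tested. Their log2 fold changes were all negative, at -0.44 for Klf2, -1.26 for Hspa1b, -0.29 for Dusp1 and -0.47 for Klf4. The genotypes did not overlap for Klf2 and Dusp1, as in 29.9% of all genes tested. They overlapped for Hspa1b, at 250 and 47.5 CPM in WT replicates 1 and 2 and 103 and 24.1 in Dp(10)2Yey replicates 1 and 2. Klf4, at 1140, 645, 766 and 517 CPM in the same order, overlapped as well. With the replicate number as a block, Hspa1b and Hspa1a passed the threshold, both lower in Dp(10)2Yey. Hspa1b also passed it without WT replicate 2, which leaves a lone WT library. These lists were read beside 0.00 as the median of all genes tested, and Gp9, the only 1 of 14 platelet markers that was tested, had a log2 fold change of 0.30.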

How the data were processed

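The authors deposited raw UMI counts per gene and barcode for each library, from 10x droplet libraries processed with Cell Ranger 3.0.2 against a custom mm10 reference. The counts were used without change. The labels give separate mice as replicates and say no more of them, and cells were prepared from 1 mouse of each genotype on each of 2 days, but the sources do not tie the replicate numbers to those days.

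The study's filters were used (a minimum of 200 genes per cell, and genes seen in more than 3 cells), red blood cells were removed after a first clustering, and cells were clustered in Seurat 5.3.0 (R 4.3.3) by canonical correlation analysis with 2000 variable genes, 50 dimensions and a resolution of 0.2 (0.5 in the first pass). Myeloid cells were clustered again with 30 dimensions and a resolution of 0.5. The 10 chemokine genes were left out of the variable genes. Clusters were named where markers of a class stood among their 10 leading genes. Clusters with at least 1% of UMIs from microglia markers were also compared with the clusters outside that group, as decided once the clusters had been seen, since one of them was otherwise unnamed. A cluster was low-RNA where its median was under 1/3 of that of all cells. Scrublet (scanpy 1.11.5) called 58 doublets, which were kept in the main analysis.

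Positive cells had at least 1 UMI. Values thinned to 500 or 1000 UMIs are exact expected shares, and correlations used one seeded draw. A share of 0 allows up to 3 counts of the total. UMIs were summed per library and class, for classes with at least 10 cells in each library, and compared with edgeR 4.0.16 (TMM, filterByExpr, quasi-likelihood test, two-sided, no block) with Benjamini-Hochberg adjustment over all genes tested and a threshold of 0.01, after a test on simulated data. Levels between genotypes are CPM after TMM. Levels of sub-clusters of fewer cells are CPM of the sums. Alternatives were DESeq2 1.42.0, the replicate number as a block, RLE size factors, genes of low counts not filtered out, removal of doublets or of cells over 20% mitochondrial UMIs, thinning of all sums to the smallest library, the chemokine genes kept among the variable genes, at least 2 UMIs for a positive cell, and each library left out. Inclusion of the low-RNA cluster and removal of neutrophil-marker barcodes were added after the data were seen. The named genes are the 10 chemokine genes, the 5 genes most correlated with each gene found in at least 200 microglia-like cells (among genes in at least 5% of cells), list genes past the threshold and leading genes of myeloid clusters. Receptors, list genes with an unadjusted p under 0.05 and other ligands in the Mrc1 and Pf4 sub-cluster were named after their values were seen. The genes, lists and alternatives were chosen with earlier results of these data known.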

Additional observations from a re-analysis of the deposited data

Results flagged for a closer look

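In 3 comparisons the Dp(10)2Yey libraries were both above the WT libraries in one myeloid sub-cluster and both below them in another, and the difference between the sub-clusters was not tested. Ccl2, a ligand of Ccr2, had a log2 fold change, Dp(10)2Yey over WT, of 0.44 in the cells led by Gadd45b and Nfkbia and of -1.68 in the Mrc1 and Pf4 sub-cluster, which was -0.75 without Dp(10)2Yey replicate 1. In the cells led by Hspa1b and Hist1h1d it was 1.36, beside the same -1.68, from 0, 61.1, 81.2 and 103 CPM in WT replicates 1 and 2 and Dp(10)2Yey replicates 1 and 2. Ccl12 had 0.60 in the low-RNA sub-cluster, from 84.6, 76.3, 97.3 and 141 CPM, and -1.30 in the Mrc1 and Pf4 sub-cluster. None of these values passed the threshold of 0.01 with edgeR in its own sub-cluster without a block when all libraries were used. Ccl2 passed it in the Mrc1 and Pf4 sub-cluster with the replicate number as a block (-2.58). With 1 library left out it passed in the Hspa1b and Hist1h1d cells without WT replicate 2, which leaves a WT library at 0, and in the Mrc1 and Pf4 sub-cluster without Dp(10)2Yey replicate 2, which leaves a Dp(10)2Yey library at 0.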

How the results depend on the processing

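In microglia-like cells 0 of the chemokine genes passed under DESeq2, no filter on low counts, RLE size factors, the replicate block, removal of doublets or of cells with over 20% mitochondrial UMIs, thinned sums, the genes kept for clustering, or the low-RNA cluster included. Leaving out 1 library gave 0 to 1, the 1 being Cxcl2, at -1.36 without WT replicate 1 and 8.32 without WT replicate 2. In all cells summed, no filter on low counts gave 1 (Ppbp), and leaving out 1 library gave 0 to 1 (Ccl7 without Dp(10)2Yey replicate 2). In the sub-clusters, no filter gave 4 of the tests past the threshold and leaving out 1 library gave 2 to 10, the 10 without Dp(10)2Yey replicate 2. There the replicate block gave 2, Ccl2 and Ccl7 in the Mrc1 and Pf4 sub-cluster. Over the lists, no filter gave 1 (Hspa1b), the replicate block 2 (Hspa1b and Hspa1a), and leaving out 1 library 0 to 2 (Cxcl10 without WT replicate 1, Hspa1b and Hspa1a without WT replicate 2). The number of chemokine genes with separated shares was 5 to 7 with 1 library left out, against 3 with all. Of all genes tested, 63.9% and 77.8% were then separated without WT replicates 1 and 2, and 68.3% and 71.5% without Dp(10)2Yey replicates 1 and 2.

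Over all genes, calls in microglia-like cells moved from 0 to 20 with no filter, 24 with the replicate block and 0 to 16 with 1 library left out. In all cells they moved to 3 with DESeq2, 87 with no filter and 0 to 4 with 1 library left out. In the Mrc1 and Pf4 sub-cluster 5 genes became 22 with no filter, 13 with the replicate block, 0 without the neutrophil-marker barcodes and with thinned sums, and 12 to 27 with 1 library left out. Deviations of same-numbered libraries correlated at -0.01 in all cells and 0.16 in microglia-like cells over 2 pairs, which does not pair them. For the genes and classes that passed the filter with all libraries, which leaves out several of the calls counted above, 670 alternative log2 fold changes were computed. Of these 656 stayed on their side of the threshold, 13 passed it newly in the same direction, and 1 passed it in the other direction (Cxcl2, above). Changes of sign among values that were not called, such as that of Ccl7 in all cells, were not counted. The causes were not tested, apart from the lower depth and number of libraries that leaving one out implies. Genes near 0 in a library, such as Cxcl2 and Ccl7, are limited by few cells. With a lone library in a genotype, its spread was assumed to be that of the other genotype.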

Other observations

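Outside the cells kept, the chemokine genes were nearly absent from the 183 barcodes with under 200 genes, where Ccl4 had 2 UMIs and the other 9 genes had 0. The median depth of these barcodes was 3293 UMIs, beside 3442 in the cells kept. Among the 34 red blood cell barcodes, 6 had a Ccl3 UMI and 6 a Ccl4 UMI.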
